A study of Homo sapiens with 3 samples.

Results

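The autophagy and lysosome genes were examined in untreated, exponentially growing C33A cells, a human cervical carcinoma line. Genes were taken by symbol: the ATG genes, the 4 ULK kinases, BECN1, SQSTM1, the MAP1LC3 and GABARAP genes, the V-ATPase subunit genes (ATP6V0 and ATP6V1), the cathepsins (CTS and 1 letter), the LAMP and MCOLN genes, TFEB and TFE3. This gave 76 of the 18417 genes measured. RNA was isolated 3 times and each isolate was read on 1 Affymetrix Human Gene 1.0 ST array, to place genes by their level of transcription. The cells grew in serum-supplemented DMEM without treatment, so the series holds 1 condition and no contrast, and no test between groups was possible. Levels are log2 intensities after Robust Multichip Average (RMA) normalization and are given as the mean ± SD of n = 3 replicates. The sources do not say whether the isolates came from separate cultures, so that the SD may be technical. Probe sets differ in sequence, so that the order of genes is approximate and differences between genes are not fold changes. The SD covers the spread between arrays and not that between probe sets, which for the 2 probe sets of ATG2B was larger (9.03 and 7.72), so that no difference between genes was tested.

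Autophagy encloses cytoplasm in a membrane that closes into an autophagosome and fuses with the lysosome, where acid hydrolases degrade the content. The ULK kinase complex starts the process, the BECN1 lipid kinase complex marks the site, ATG9 and ATG2 bring membrane lipid, and a pair of ubiquitin-like reactions attach the ATG8 proteins (LC3 and GABARAP) to the growing membrane. The V-ATPase pumps protons into the lysosome, cathepsins digest proteins there, LAMP glycoproteins line the membrane, and the factors TFEB and TFE3 can raise transcription of many of these genes, above all when nutrients are scarce.

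The arrays were close to each other, with Pearson's r of 0.993 to 0.994 across all probe sets. No detection call came with the values, so a bound was taken from 480 genes of families that most tissues do not transcribe (olfactory and taste receptors, keratin-associated proteins and beta-defensins). Their 95th percentile was 6.41 log2, and 56.5% of all genes were above it. All 6 proliferation genes examined were above the bound, from CDK1 at 8.78 to CCNB1 at 12.09. Markers of an epithelium were mostly at background, with 2 of 9 above it (KRT18 at 7.75 and KRT14 at 6.86), while EPCAM was at 4.52 and CDH1 at 4.95. Of other cell types, 2 of 9 leukocyte, 3 of 10 fibroblast and 1 of 8 endothelial markers were above the bound, led by PTPRC at 8.82, COL3A1 at 11.36 and CLDN5 at 6.89. In bulk RNA a low signal from all cells and a high signal from few cells cannot be told apart.

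Most autophagy and lysosome genes had a signal above background in C33A cells. Of the 76 genes, 56 were above the bound, against 56.5% of all genes, and these 56 passed it on all 3 arrays, against 55.1% of all genes. In the high tertile of signal, which began at 8.14 log2, were 42 of the 76, and 11 were in the low tertile, which ended at 5.74. By construction each tertile held 6139 of all genes. The highest decile held 11 of the 76 (1842 of all genes) and the lowest 4 (1841 of all genes), while decile 8 alone held 18. Their median level was 8.45 log2, against 6.91 over all genes, and on single arrays it was 8.51, 8.47 and 8.40, against 6.92, 6.92 and 6.90. These counts describe a chosen set of genes and were not tested. The range was wide, from ATP6V0D2 at 2.40 to CTSA at 11.12, and within several families a member near the top of the array stood beside a relative at background.

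**Figure D1:**
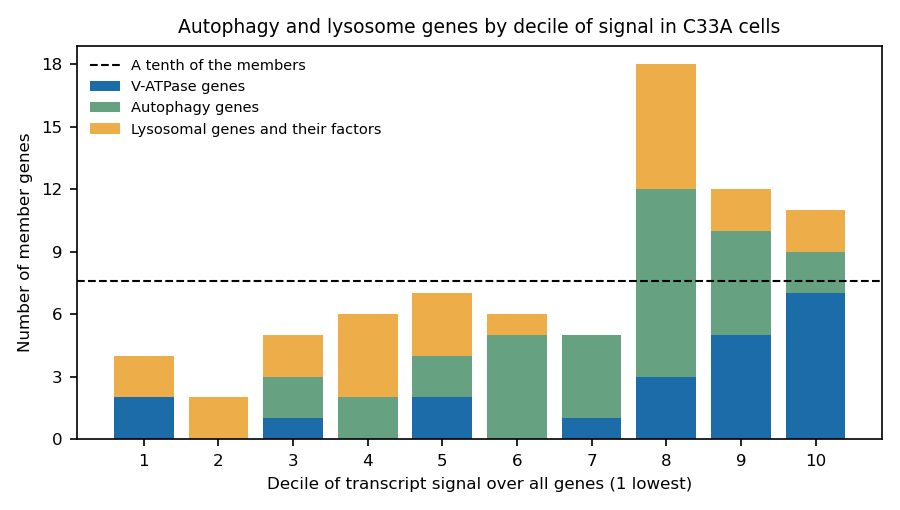
Number of the 76 autophagy and lysosome genes (y axis) in each decile of transcript signal over all 18417 genes (x axis, 1 lowest), coloured by function; the dashed line is the number that an even spread over the deciles would give. Decile 8 held 18 genes, decile 10 held 11, most of them V-ATPase genes, and decile 1 held 4.

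V-ATPase genes made up 7 of the 11 list genes in decile 10. The pump has a cytosolic V1 sector that splits ATP and a membrane V0 sector that carries protons. Counted by the highest gene of each subunit, all 13 measured subunits reached the high tertile, and 7 of them reached decile 10. Taking the highest gene by its level can raise these counts for the 7 subunits with more than 1 measured gene. No like count was made for other gene families. The lowest of these leading genes was ATP6V1H at 8.84. Taken singly, 15 of the 20 subunit genes were in the high tertile, against 6139 of all 18417 genes. Of the others, 2 were in the medium and 3 in the low tertile. Median levels were 9.06 for the 12 V1 genes and 9.86 for the 9 genes with a V0 symbol, of which 1, ATP6V0E2-AS1 at 7.78 ± 0.14, is a long non-coding RNA and no subunit. Its part in the ATP6V0E2 signal was not tested.

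Among subunits with a single measured gene, the catalytic subunit gene ATP6V1A had 9.73, 9.78 and 9.67 log2 in replicates 1, 2 and 3 (9.72 ± 0.06, SD, n = 3). ATP6V1F, a small subunit of the rotor, was at 10.70, 10.64 and 10.58 (10.64 ± 0.06). The proton-binding ring subunits ATP6V0C, with 10.78, 10.88 and 10.80 (10.82 ± 0.05), and ATP6V0B, with 10.12, 10.17 and 10.14 (10.14 ± 0.02), were both in decile 10. Lower, in decile 8, were the rotor gene ATP6V1D at 8.85 ± 0.06 and ATP6V1H, a regulatory subunit, at 8.84 ± 0.04.

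For the 7 subunits with several genes, the isoforms of most fell into different tertiles. The B subunit gene ATP6V1B2 was at 10.67, 10.68 and 10.72 (10.69 ± 0.03, decile 10), and its relative ATP6V1B1, known from kidney intercalated cells and the inner ear, was at 6.66, 6.65 and 6.69 (6.67 ± 0.02, decile 5). Of the C subunit genes, ATP6V1C1 had 9.58, 9.53 and 9.58 (9.57 ± 0.03, decile 9), while ATP6V1C2 had 5.49, 5.40 and 5.32 (5.40 ± 0.09, decile 3), under the bound in all replicates. ATP6V1E1 gave 9.26, 9.22 and 9.36 (9.28 ± 0.07), and ATP6V1E2, a testis isoform, gave 6.64, 6.64 and 6.62 (6.63 ± 0.01). The stator gene ATP6V1G1 was at 9.62, 9.66 and 9.65 (9.65 ± 0.02) and the kidney isoform ATP6V1G3 at 3.51, 3.80 and 3.63 (3.65 ± 0.14, decile 1). ATP6V1G2, the neuronal isoform, lies only on 3 probe sets shared with a read-through gene, whose means were 5.47 to 5.56, and was left out of the list.

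In the V0 sector the genes of the d subunit were in the highest and the lowest decile. ATP6V0D1 was at 9.99, 10.17 and 10.11 log2 (10.09 ± 0.09, decile 10), and ATP6V0D2, an isoform of osteoclasts and kidney, was at 2.37, 2.36 and 2.48 (2.40 ± 0.07, decile 1), the lowest of all 76 genes. Of 5 further osteoclast and intercalated cell genes measured, 0 were above the bound (3.43 to 6.32). However, ATP6V1B1 at 6.67 and TCIRG1, an osteoclast form of the a subunit, at 6.57 were above it. The a subunit, which steers the pump to its membrane, was represented by ATP6V0A1 with 9.74, 9.93 and 9.90 (9.86 ± 0.10) and ATP6V0A2 with 8.54, 8.60 and 8.49 (8.54 ± 0.06), while the osteoclast form TCIRG1, not in the list, was at 6.57 ± 0.14. For the small e subunit, ATP6V0E1 was at 10.40, 10.40 and 10.34 (10.38 ± 0.04) and ATP6V0E2 at 9.61, 9.85 and 9.69 (9.71 ± 0.12). The a and e subunits were thus the ones with both listed genes in the high tertile. The other 5 of the 7 second genes were outside the high tertile, at 2.40 to 6.67.

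**Figure D2:**
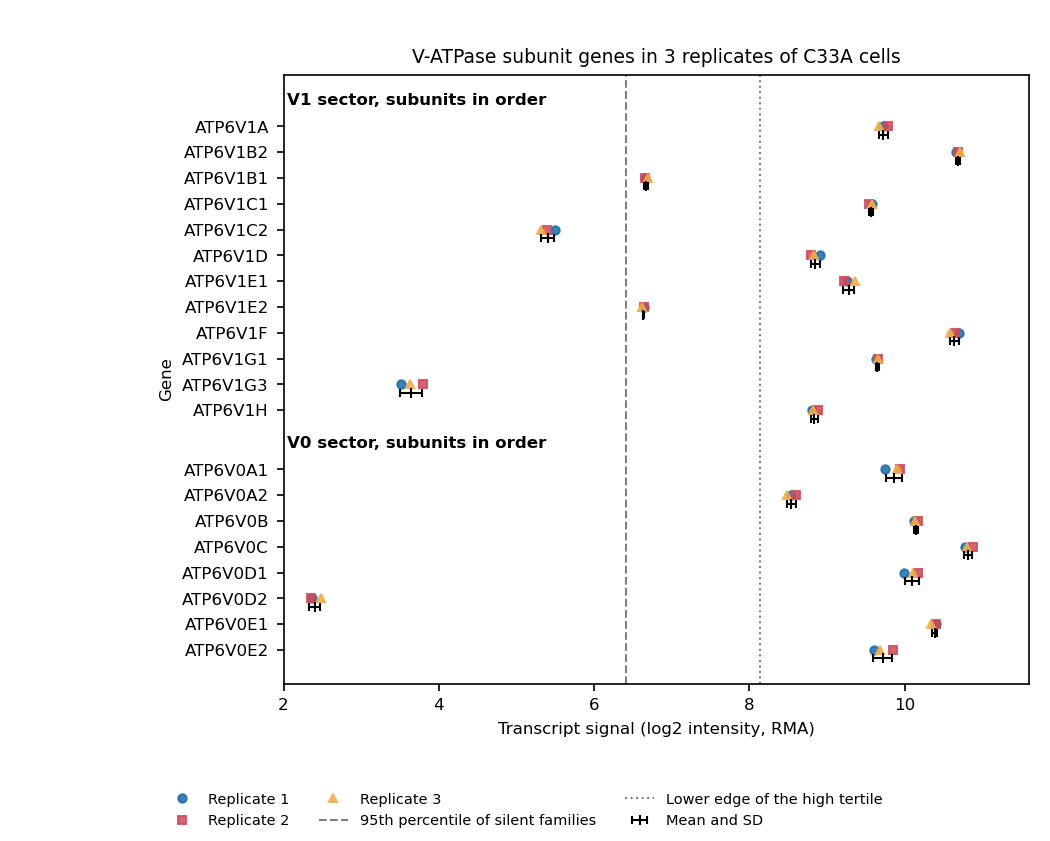
Transcript signal (x axis, log2 intensity) of the 20 V-ATPase subunit genes (y axis), with a symbol for each replicate and the mean and SD of n = 3 below it; dashed, the 95th percentile of the silent families (6.41), dotted, the lower edge of the high tertile (8.14). ATP6V1G3 and ATP6V0D2 lie far left, at 3.65 and 2.40, while every subunit has a gene right of the dotted line.

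The ULK genes, taken by symbol, and the ULK complex genes ATG13 and ATG101 had medium to high signal, apart from ULK4. The kinase gene ULK1 was at 8.50, 8.44 and 8.41 log2 (8.45 ± 0.04, SD, n = 3) and its close relative ULK2 at 7.41, 7.44 and 7.44 (7.43 ± 0.02). ULK3, linked to Hedgehog signalling more than to bulk autophagy, was at 9.04, 8.93 and 8.75 (8.91 ± 0.15), and the pseudokinase ULK4 at 5.63, 5.45 and 5.46 (5.51 ± 0.10), under the bound. The scaffold of the ULK complex, ATG13, had 9.15, 9.13 and 9.05 (9.11 ± 0.05), and its partner ATG101 had 8.77, 8.74 and 8.72 (8.74 ± 0.02). Of these 6 genes, 4 were in the high tertile, against 6139 of all 18417 genes, and only ULK4 was in the low one.

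At the next step, BECN1, the scaffold of the lipid kinase complex, was at 8.62, 8.73 and 8.74 log2 (8.70 ± 0.07) and ATG14, which directs that complex to autophagy, at 8.09, 8.14 and 8.29 (8.17 ± 0.10). The lipid scramblase gene ATG9A gave 8.62, 8.60 and 8.58 (8.60 ± 0.02), while ATG9B gave 6.44, 6.26 and 6.25 (6.32 ± 0.11) and passed the bound in replicate 1 only. The lipid transfer genes ATG2A and ATG2B were at 7.73, 7.70 and 7.79 (7.74 ± 0.05) and at 8.38, 8.43 and 8.31 (8.37 ± 0.06). ATG2B is the mean of 2 probe sets that read 9.03 and 7.72, so that its rank rests on which of them is taken.

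All 7 genes of the conjugation reactions were above the bound, against 56.5% of all genes. In the high tertile were 4 of them, against 6139 of all 18417 genes. ATG7 activates both ubiquitin-like proteins and was at 8.55, 8.42 and 8.40 log2 (8.46 ± 0.08). ATG3, which passes ATG8 proteins to lipid, had 9.39, 9.35 and 9.38 (9.37 ± 0.02), and ATG10, which passes ATG12 to ATG5, had 8.71, 8.88 and 8.77 (8.79 ± 0.09). ATG5 was at 9.49, 9.32 and 9.29 (9.37 ± 0.11), and its conjugate ATG12 was at 7.66, 7.63 and 7.63 (7.64 ± 0.02). ATG16L1, which places the complex on the membrane, was at 8.13 ± 0.03, just below the high tertile, and its relative ATG16L2 at 7.29, 7.25 and 7.23 (7.26 ± 0.03). Of the proteases that trim and recycle ATG8 proteins, ATG4B was highest at 9.20, 9.14 and 9.19 (9.18 ± 0.04). ATG4D followed at 8.34, 8.49 and 8.31 (8.38 ± 0.10) and ATG4C at 8.08, 7.97 and 7.89 (7.98 ± 0.09). ATG4A was the lowest of the 4, at 6.75, 6.78 and 6.58 (6.70 ± 0.11).

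In the ATG8 family, GABARAP and GABARAPL2 had the highest signal on probe sets of their own. GABARAP had 10.31, 10.21 and 10.20 log2 (10.24 ± 0.06, SD, n = 3) and GABARAPL2 had 9.99, 9.95 and 9.95 (9.96 ± 0.02), both in decile 10. GABARAPL1 was at 7.45, 7.49 and 7.40 (7.45 ± 0.05) and MAP1LC3A at 7.34, 7.45 and 7.35 (7.38 ± 0.06), both in decile 6. MAP1LC3C, at 6.27, 5.81 and 5.85 (5.98 ± 0.26), and the transcribed pseudogene GABARAPL3, at 5.64, 5.30 and 5.49 (5.47 ± 0.17), were under the bound.

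MAP1LC3B, the LC3 gene most used as a marker of autophagosomes, had 2 different readings. On the probe set that names it alone it was at 6.06, 6.07 and 6.10 log2 (6.07 ± 0.02), under the bound and in decile 4. On a second probe set, which carries the symbols MAP1LC3B and MAP1LC3B2 and was therefore left out of the list, the signal was 9.38, 9.38 and 9.47 (9.41 ± 0.05), inside the high tertile. The shared probe set cites 11 transcript accessions and the other 2. Which transcripts each set detects was not tested, so that the level of MAP1LC3B is uncertain. SQSTM1 (p62), a receptor that carries ubiquitinated cargo to LC3 and is itself degraded by autophagy, was at 9.76, 9.69 and 9.73 (9.73 ± 0.03, decile 9).

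**Figure D3:**
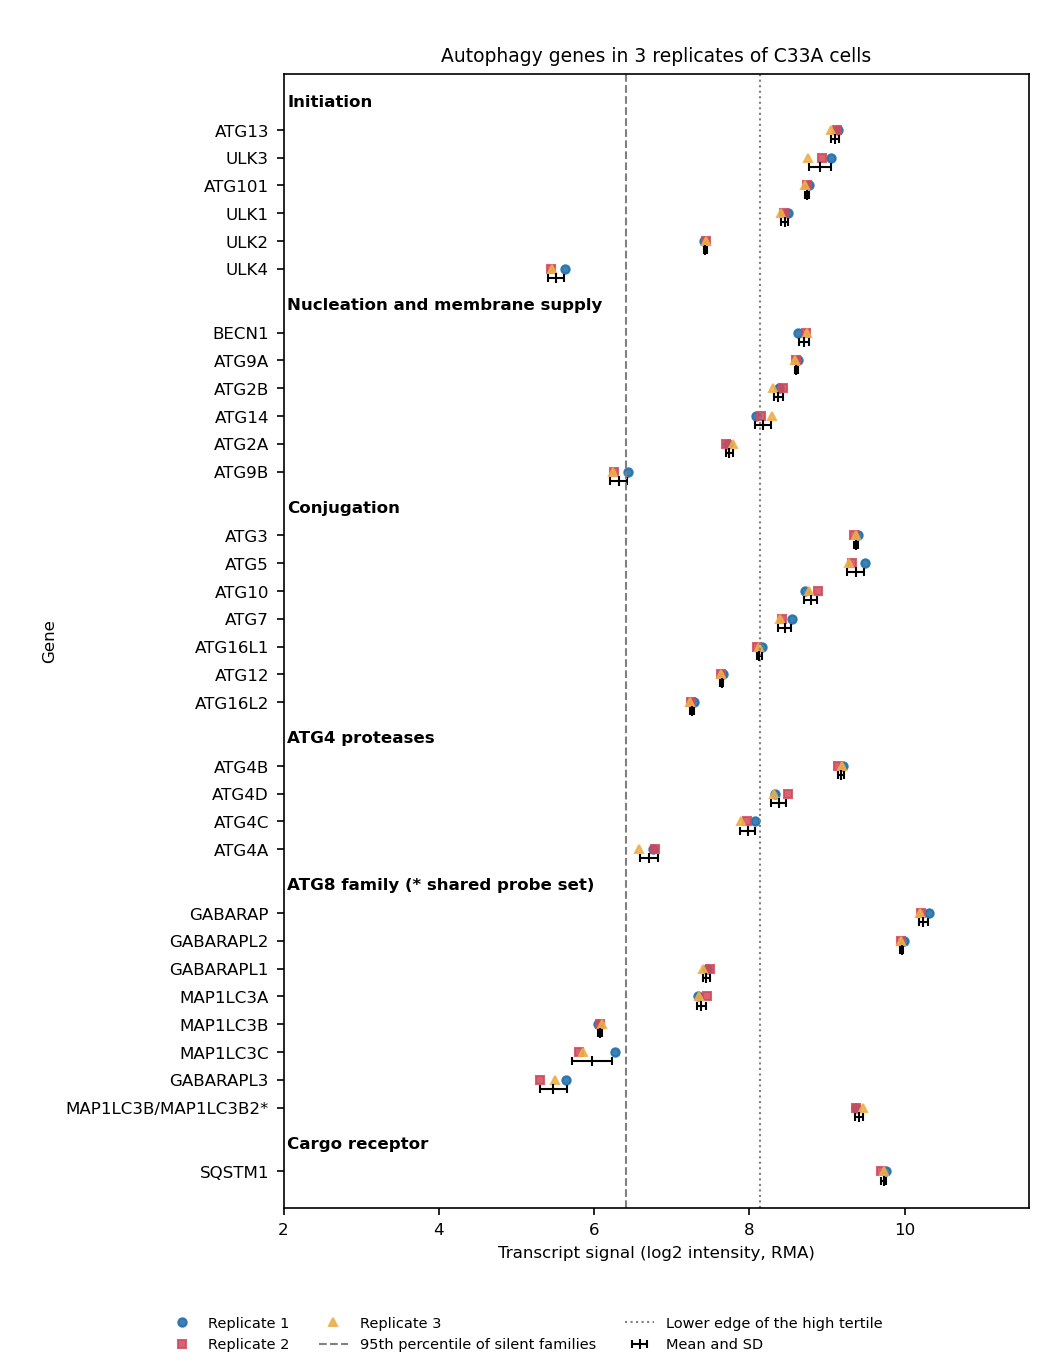
Transcript signal (x axis, log2 intensity) of the autophagy genes by step (y axis), with a symbol for each replicate and the mean and SD of n = 3 below it; the dashed and dotted lines are at 6.41 and 8.14 as before. GABARAP and GABARAPL2 lie at 10.24 and 9.96, and MAP1LC3B lies at 6.07 on its own probe set but at 9.41 on the starred one that it shares with MAP1LC3B2.

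Cathepsins spanned nearly the whole range of the list. Of the 15 genes, 7 were above the bound, against 56.5% of all genes, and 8 were not. The median was 6.11 log2, against 6.91 over all genes. CTSA, a serine carboxypeptidase that also protects other hydrolases, was the highest of all 76 genes, at 11.11, 11.11 and 11.14 (11.12 ± 0.01, SD, n = 3). The aspartic protease CTSD was next among the cathepsins, at 10.68, 10.71 and 10.64 (10.68 ± 0.04). The cysteine proteases CTSL, with 8.79, 8.98 and 8.98 (8.92 ± 0.11), and CTSB, with 8.89, 8.95 and 8.81 (8.88 ± 0.07), were in decile 8. CTSV, a close relative of CTSL, gave 8.58, 8.70 and 8.74 (8.67 ± 0.09), CTSC, which activates granule proteases, gave 8.52, 8.52 and 8.63 (8.56 ± 0.07), and the aminopeptidase CTSH gave 7.33, 7.60 and 7.55 (7.49 ± 0.14).

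The 8 cathepsins under the bound included some known from blood or bone cells (CTSS, CTSW, CTSG and CTSK), but also CTSO, CTSE, CTSF and CTSZ. CTSS, of antigen-presenting cells, was at 3.56, 3.56 and 3.54 log2 (3.56 ± 0.01), and only CTSO was lower, at 3.14, 3.03 and 3.36 (3.18 ± 0.17). CTSE, an aspartic protease of the stomach, gave 4.59, 4.66 and 4.36 (4.53 ± 0.16). CTSW of cytotoxic lymphocytes was at 5.34, 4.97 and 5.18 (5.16 ± 0.18) and CTSG of neutrophils at 5.40, 5.03 and 5.37 (5.27 ± 0.21). Of the leukocyte markers named above, only PTPRC and NKG7 (6.75) were above the bound. CTSF, CTSZ and the osteoclast protease CTSK lay at 5.97 to 6.11, close below the bound, where a low level and background cannot be told apart.

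Of the lysosomal membrane glycoproteins, LAMP2 was at 9.58, 9.68 and 9.58 log2 (9.61 ± 0.06, SD, n = 3) and LAMP1 at 9.21, 9.29 and 9.22 (9.24 ± 0.04), both in decile 9. LAMP3, known from mature dendritic cells, was at 6.22, 6.40 and 6.42 (6.34 ± 0.11), around the bound, and LAMP5, a neuronal form, at 4.54, 4.65 and 4.91 (4.70 ± 0.19). The mucolipins release calcium and other cations from the lysosome, and of these MCOLN1 had 8.92, 9.02 and 9.03 (8.99 ± 0.06). MCOLN2 had 6.76, 6.99 and 6.67 (6.81 ± 0.16) and MCOLN3 had 5.80, 6.31 and 6.17 (6.09 ± 0.27). LAMP1, LAMP2 and MCOLN1 were thus the genes of these families in the high tertile.

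Of the transcription factor genes, TFE3 was at 8.97, 8.99 and 8.91 log2 (8.96 ± 0.04, decile 8). TFEB was at 6.33, 6.28 and 6.32 (6.31 ± 0.02, decile 5), just under the bound in all replicates. The other factors of this family, not in the list, were lower than TFE3 as well, with MITF at 6.63 ± 0.16 and TFEC at 3.08 ± 0.11. TFEB and TFE3 act through their place in the cell as much as through their amount, which transcript levels do not show.

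**Figure D4:**
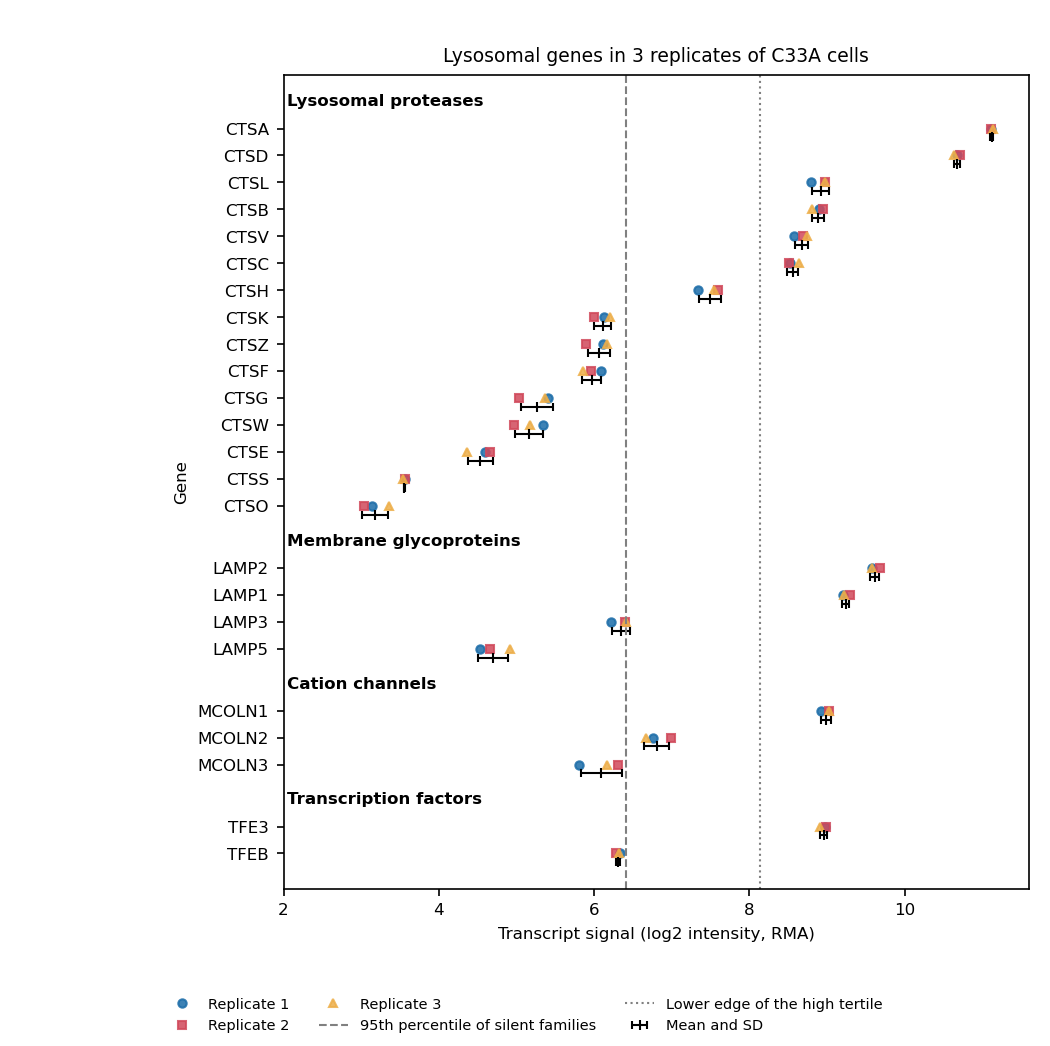
Transcript signal (x axis, log2 intensity) of cathepsins, LAMP and MCOLN genes and the factors TFE3 and TFEB (y axis), with a symbol for each replicate and the mean and SD of n = 3 below it; the dashed and dotted lines are at 6.41 and 8.14. CTSA and CTSD lie at 11.12 and 10.68, 8 cathepsins lie left of the dashed line, and TFE3 lies at 8.96 against 6.31 for TFEB.

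TFEB and TFE3 bind the CLEAR element, which has the E-box CACGTG at its centre, within TCACGTGA, within a full form of 10 bases (the longest run of capitals in the MCOLN1 and ATP6V1G1 sequences), and the promoters of the list were searched for it. RefSeq windows of 300 bases (GRCh38.p14, from 250 before to 50 after the start of transcription) were at hand for 57 of the 76 genes. All motifs searched are palindromes, so that both strands are read at once, and each shorter motif is contained in the longer one. The stretches below show the sites upstream of the start in 5 genes whose window held TCACGTGA, 5′ to 3′ along the gene, with the longest match in capitals. A second TCACGTGA of LAMP1, which spans the start, is not shown.
LAMP1 (chr13:113297034-113297113, + strand): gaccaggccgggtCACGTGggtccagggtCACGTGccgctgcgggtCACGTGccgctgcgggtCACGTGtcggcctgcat
LAMP1 (chr13:113297177-113297236, + strand): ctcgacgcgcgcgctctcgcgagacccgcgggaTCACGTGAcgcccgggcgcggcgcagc
MCOLN1 (chr19:7522564-7522623, + strand): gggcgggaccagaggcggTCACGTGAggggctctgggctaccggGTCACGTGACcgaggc
CTSA (chr20:45891275-45891334, + strand): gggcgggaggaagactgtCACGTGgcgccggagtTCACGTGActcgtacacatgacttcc
ATP6V1G1 (chr9:114587689-114587748, + strand): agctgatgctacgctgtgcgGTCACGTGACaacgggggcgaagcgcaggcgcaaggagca
ATP6V0D1 (chr16:67481178-67481237, - strand): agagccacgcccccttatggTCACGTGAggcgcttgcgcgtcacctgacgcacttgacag

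The E-box CACGTG was in a window of 12 of the 57 genes, against 10.9% of the 14239 measured genes with a window. TCACGTGA was found in 6 of the 57, ATG3 and the 5 genes above, against 1.71%, and the full 10-base form in 2 (MCOLN1 and ATP6V1G1), against 0.646%. LAMP1 had the most, with 6 E-boxes in its window, 4 of them from 192 to 142 bases before the start and the other 2, both within TCACGTGA, 28 bases and 1 base before it. MCOLN1 held 2 sites, 41 and 14 bases before the start. All 6 genes with TCACGTGA were in the high tertile of signal, from MCOLN1 at 8.99 to CTSA at 11.12, against 61.9% of all genes with that motif and 34 of the 57 list genes with a window. Of the 12 with any E-box, 11 were in the high tertile, against 46.9% of all genes with an E-box, and the other was CTSF at 5.97 ± 0.12. These are matches of letters in promoters, and whether a factor was bound there in C33A cells was not measured.

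Other genes of the pathway, taken from lists of related function, were also mostly high. Of 79 measured (89 listed), 76 were above the bound, against 56.5% of all genes. In the high tertile were 59 of the 79, against 6139 of all 18417 genes. Their median was 8.77 log2, against 6.91 over all genes. These lists were chosen with earlier results of these data known, and the counts were not tested. Lysosomal hydrolases had 23 of 24 above the bound, led by PPT1 at 11.13 ± 0.02 (SD, n = 3), a thioesterase, and PSAP at 10.91 ± 0.05, the precursor of saposins. The exception was GALC, which cleaves galactosylceramide, at 3.50, 3.43 and 3.39 (3.44 ± 0.06, decile 1). All 13 membrane and sorting genes were above the bound, with the mannose 6-phosphate receptor M6PR at 10.99 ± 0.05. The V-ATPase accessory proteins ATP6AP1 and ATP6AP2 were at 10.48 ± 0.05 and 9.61 ± 0.04. Of 13 partners of the autophagy genes, VMP1 was highest at 12.09 ± 0.05 and only WIPI1, at 6.11 ± 0.13, was under the bound. All 8 further cargo receptors were in the high tertile, with the mitophagy receptor BNIP3 at 10.16 ± 0.05, and of the regulators the kinase gene MTOR, whose product restrains ULK1 and TFEB, was at 9.36 ± 0.06.

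Levels differed little between the replicates. The SD of the 76 genes had a median of 0.06 log2, against 0.08 over all genes. Over all genes the median SD fell with level, from 0.14 in decile 1 to 0.04 in decile 10. The lower median of the 76 can thus not be read as closer replicates. Of the 76, 42 were above the median SD of all genes in their own decile. Only MCOLN3 had replicates more than 0.5 log2 apart, against 4.14% of all genes, with replicate 1 lowest. The next largest SDs were those of MAP1LC3C, where replicate 1 was highest, CTSG at 0.21, LAMP5 at 0.19 and CTSW at 0.18. All 5 of these genes were under the bound on the mean. Among genes of the high tertile, ULK3 had the largest SD, 0.15. No replicate stood apart over the list, since replicate 1 was the highest of the 3 for 29 genes, replicate 2 for 28 and replicate 3 for 19, against 39.2%, 32.5% and 28.3% of all genes.

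**Figure D5:**
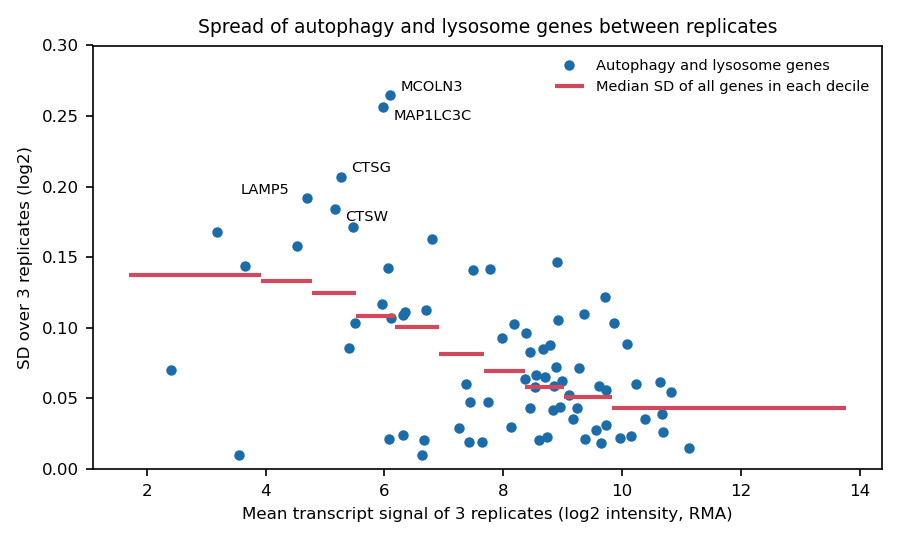
SD over 3 replicates (y axis, log2) against mean transcript signal (x axis, log2 intensity) for the 76 autophagy and lysosome genes (points), with the median SD of all genes in each decile (bars). The 5 labelled genes, MCOLN3 highest at 0.27, have a mean below 6.41.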

How the data were processed

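Total RNA isolated in 3 replicates from C33A cells was hybridized to Human Gene 1.0 ST arrays. The authors normalized the arrays by RMA (background correction, 1 common distribution, 1 value per probe set), processed them with oneChannelGUI and deposited log2 intensities. Their versions were not found in the labels or methods. The common distribution removes any overall shift between replicates, and the number of arrays limits the precision. Array medians were 6.20, 6.19 and 6.20 log2. Of 33297 probe sets, 19460 with 1 symbol in the platform annotation, brought up to date through the RefSeq table of GRCh38.p14, were averaged per gene, 1754 that name more than 1 gene were not used, and for 12083 the annotation names none. Genes were ranked by their mean into deciles and tertiles, and the bound was the 95th percentile of the silent families. The members, role groups and lists were chosen with earlier results of these data known. Values on all arrays are given for ATG8, ULK, LAMP and MCOLN genes, V-ATPase isoforms, cathepsins above the bound and the lowest 3, BECN1, SQSTM1, TFEB, TFE3, the extremes of other groups and the 5 largest SDs; genes named beyond this rule were chosen after their values were seen. Alternatives left out each array, took the highest probe set, only genes with 1 probe set, a second quantile normalization, updated symbols, other bounds and other tertiles. The functions were tested on simulated levels. Python 3.11.15, NumPy 2.4.6, pandas 2.3.3 and matplotlib 3.10.9 were used.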

Additional observations from a re-analysis of the deposited data

How the results depend on the processing

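Of the 76 genes, 56 were above the bound without any single array, with the highest probe set of each gene or after a second quantile normalization. A bound at the 90th percentile left 65 above it, at the 99th percentile 44, and from olfactory receptor genes alone 67. The share of all genes above these other bounds was not computed. The 56.5% given above holds for the bound of 6.41 log2 only, so that these counts cannot be set against it. TFEB, MAP1LC3B and 7 others were above the 90th percentile bound, so that calls near the bound depend on it. Group medians that moved by more than the replicate spread were few. For V1 genes the median was 9.06 log2, 9.05 to 9.09 with a replicate left out, and 8.85 with shared probe sets used, an alternative chosen after seeing the data. Shared probe sets also gave 7.45 for the ATG8 family (7.38 before) and 7.74 for MAP1LC3B, above the bound. For nucleation genes the median was 8.27, 8.39 with the highest probe set and 8.17 with genes of 1 probe set, which also gave 7.98 for ATG4 (8.18) and 8.74 for initiation (8.60). Without the antisense RNA and the pseudogene, also chosen after seeing the data, V0 genes had 9.97 (9.86). No value changed direction, since none is a difference between groups. No paired analysis was possible because the series holds 1 group. Without a detection call, low transcription and background cannot be told apart below the bound.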
